A study of Homo sapiens with 18 samples.

Results

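The NF-kB cytokine and feedback genes described here are 10 of the 23399 genes in the deposited expression table. They were picked by name, with no threshold on a measured value but with earlier results of these data known, and each had a row of its own: the chemokines CXCL1, CXCL2, CXCL3 and CCL2, the cytokines IL6, IL1A and IL1B, the feedback inhibitors NFKBIA and TNFAIP3, and the adhesion molecule ICAM1. The cells were U2OS, a human osteosarcoma line, transduced with a retrovirus that encodes MycER, in which Myc is joined to an estrogen receptor domain and becomes active once 4-hydroxytamoxifen (OHT) is added. They were reverse-transfected with pooled siRNAs that target RAD21, the cleavable subunit of cohesin (siRAD21), or with an siRNA against Renilla luciferase (siCtrl), and received 400 nM OHT or ethanol at the same time. Total RNA depleted of ribosomal RNA was sequenced 24 or 48 h later. The 8 groups were siCtrl with ethanol, siCtrl with OHT, siRAD21 with ethanol and siRAD21 with OHT at each time, with 3 libraries in the siCtrl and siCtrl OHT groups at 48 h and 2 in every other group. Every group, controls included, carried MycER and was transfected, and no group of untransduced or cytokine-treated cells was analysed here.

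NF-kB is a family of transcription factors that wait in the cytoplasm, bound by inhibitors of the IkB family. Signals such as tumour necrosis factor, interleukin-1 or bacterial products lead to degradation of the inhibitor, and the factors enter the nucleus and switch on chemokines, cytokines and adhesion molecules. Among their targets are their own inhibitors, so the response is turned off again by its products. Osteosarcoma lines, like the osteoblasts they derive from, can release chemokines of this set.

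Levels are given as eRPKM, the reads on exons scaled by transcript length and by the number of mapped reads. This scaling makes them comparable between genes and between libraries for these factors only. The reads behind them were recovered from the values, since each eRPKM is a whole number of reads divided by a gene length and a library depth, and the depths came to 9647501 to 12678599 reads per library. RAD21 itself ranged from 66.4 to 96.9 eRPKM in the siCtrl libraries and from 11.1 to 18.6 eRPKM in the siRAD21 libraries. MYC, whose reads from the gene and from the transgene cannot be told apart, had group means of at most 57.0 eRPKM. Of 9 osteoblast lineage genes, 5 passed the level for testing and the group means of SPARC, a bone matrix protein, reached 84.1 eRPKM, whereas those of COL1A2 and IBSP were at most 0.0882 and 0.0404 eRPKM. Of 9 immune cell genes, 4 passed the level for testing: CD68, LYZ, ITGAM and CSF1R. The group means of LYZ, ITGAM and CSF1R reached 2.63, 2.54 and 1.23 eRPKM. Those of the defining markers CD3E and PTPRC were at most 0.0409 and 0.259 eRPKM. The 9 genes had a summed level of 13.6 to 23.2 eRPKM. CD68, a lysosomal protein also made outside the immune system, made up most of it. None of 5 endothelial genes passed the level for testing. The chi-square per gene between 2 libraries of a group reached 3.989. It was 1.053 for siRAD21 at 24 h, near sampling noise, and these libraries are kept as 2 samples. The 2 siRAD21 OHT libraries at 48 h differed by less than the sampling noise of their reads (0.984). Their mean is therefore given as 1 sample with no SD. The fits described here hold both libraries, so that their standard errors and p-values for this group rest on 2 samples. With the 2 libraries averaged into 1 sample, the calls of the 4 genes tested were the same in all 12 comparisons, with larger adjusted p-values, which are given for the calls that use this group.

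A gene is called expressed here in a group where its mean was at least 1 eRPKM. By this measure 7 of the 10 genes were expressed in at least 1 group, and IL6, CXCL1 and CXCL2 in none. CCL2, NFKBIA and TNFAIP3 were expressed in all 8 groups. CXCL3 was expressed in 4 groups, IL1A in 3, IL1B in 1 and ICAM1 in 1. The number expressed was 3 in siCtrl cells at both times and in siCtrl OHT cells at 24 h, and it was highest, 6, in siRAD21 cells at 48 h. The count of 6 rests on replicate 1 for CXCL3 and IL1B (1.32 and 2.01 eRPKM). In replicate 2 these genes were under 1 eRPKM (0.942 and 0.650 eRPKM). NFKBIA was the most abundant gene (mean of 60.5 eRPKM over the 18 libraries), followed by CCL2 (28.7 eRPKM) and TNFAIP3 (7.73 eRPKM). The ranges of these 3 genes over the libraries did not overlap, and the other 7 genes had means of at most 1.17 eRPKM.

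Differences between groups were tested with limma on log2(eRPKM + 0.5) of all 18 libraries, for the 14993 genes with a mean of at least 1 eRPKM. A gene is called changed when its p-value, adjusted with the Benjamini-Hochberg procedure over these genes, falls under 0.05 and the log2 fold change exceeds 0.5 in size. On this scale the change of a low gene is understated. Of the 10 genes, 4 entered the test: CCL2, NFKBIA, TNFAIP3 and CXCL3. CXCL3 did so because of its higher groups, since its mean was below 1 eRPKM in the other 4. The 6 genes left out are described by their reads. In bulk RNA, fewer cells that express a gene and less of its RNA per cell cannot be told apart.

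**Figure D1:**
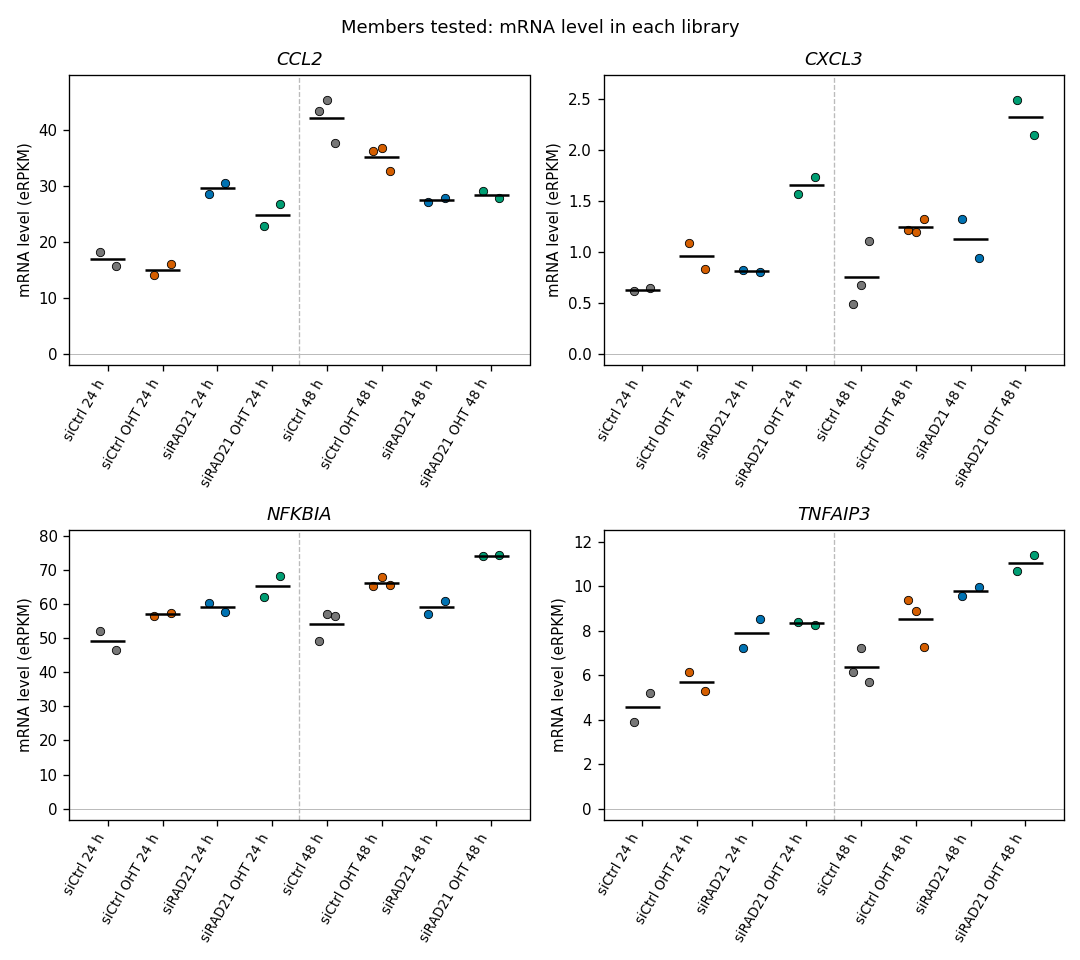
mRNA level in eRPKM (vertical axes, each including 0) of the 4 genes tested in each of the 18 libraries, by group. Points are libraries and bars are group means; the dashed line separates 24 h from 48 h. CCL2 is highest in the siCtrl libraries at 48 h (37.7 to 45.3 eRPKM), whereas NFKBIA, TNFAIP3 and CXCL3 are highest in the siRAD21 OHT libraries at 48 h.

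CXCL1, CXCL2 and CXCL3 encode neutrophil-attracting chemokines that act on the receptor CXCR2. Their genes lie in 1 cluster on chromosome 4 (GRCh37, CXCL1 at 74735110 to 74737025 on the plus strand, CXCL3 at 74902306 to 74904524 and CXCL2 at 74962757 to 74964913 on the minus strand). CXCL1 had 1 read in all, in siRAD21 OHT replicate 2 at 48 h, and 0 reads in the other 17 libraries. CXCL2 had 17 reads in all, at most 3 in a library, and 0 reads in 8 libraries. A count of 0 allows up to 3 reads, which is 0.197 to 0.261 eRPKM for these 2 genes, a limit that covers counting error only. Both genes were at or under this limit in every library, so no difference between groups was detectable at this depth. CXCL3 had 469 reads, from 10 to 50 in a library.

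The members' reads can be shared where sequences are alike. Of the distinct 50-base words in the annotated transcripts, 50 bases being the read length, 4.57% of those of CXCL1, 13.4% of those of CXCL2 and 6.01% of those of CXCL3 also occur in one of the other two genes. How the authors' counting treated reads with more than 1 match is not given in the sources used here.

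The promoter windows show how alike the 3 chemokine genes are at a candidate NF-kB site. The table of RefSeq promoters used here (GRCh38.p14) held, for 9 of the 10 genes, a window from 250 bases before to 50 bases after the start of the gene. The window of CCL2 was not analysed here. A match to the consensus of NF-kB sites, searched by name on both strands, was found in the windows of 6 genes, and in 11.3% of all 34943 windows of this kind. The stretches from 100 to 41 bases before the start of these 6 genes follow, 5′ to 3′ on the strand of the gene, with the matches in capitals.
CXCL1: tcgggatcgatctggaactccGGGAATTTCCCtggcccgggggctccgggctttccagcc
CXCL2: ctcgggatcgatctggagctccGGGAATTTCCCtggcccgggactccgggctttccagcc
CXCL3: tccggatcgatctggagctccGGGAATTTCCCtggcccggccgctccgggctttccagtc
IL6: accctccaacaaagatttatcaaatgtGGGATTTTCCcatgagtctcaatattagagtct
NFKBIA: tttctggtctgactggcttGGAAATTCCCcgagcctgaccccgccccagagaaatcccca
TNFAIP3: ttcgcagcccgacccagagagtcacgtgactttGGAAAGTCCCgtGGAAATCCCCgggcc
In CXCL1, CXCL2 and CXCL3 the capitals hold a match on each strand, shifted by 1 base, and the letters in capitals are the same in the 3 genes. Their reads summed to 1, 17 and 469. The stretches lie at chr4:73869293-73869352 (CXCL1), chr4:74099236-74099295 (CXCL2), chr4:74038730-74038789 (CXCL3), chr7:22727100-22727159 (IL6), chr14:35404790-35404849 (NFKBIA) and chr6:137867159-137867218 (TNFAIP3), in GRCh38.p14. TNFAIP3 has 2 separate matches and, before them, the letters cacgtg, the E-box that Myc with Max can bind, starting 78 bases before the start of the gene. These letters occur in 7.23% of all windows and, among the 9 genes, in TNFAIP3 only. No match to the NF-kB consensus was found in the windows of IL1A, IL1B and ICAM1, and that of IL1A held the AP-1 motif TGANTCA (both strands), which is present in 7.72% of all windows. A match is a description of the letters and not a measured binding site.

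The level of CXCL3 in siCtrl cells at 24 h was 0.615 and 0.644 eRPKM, and in siCtrl OHT cells 1.09 and 0.837 eRPKM. In siRAD21 cells at 24 h it was 0.820 and 0.80 eRPKM, and with OHT 1.57 and 1.74 eRPKM. The siRAD21 OHT libraries were above every other library at 24 h. At 48 h CXCL3 was at 0.493, 0.672 and 1.11 eRPKM in siCtrl cells, at 1.22, 1.20 and 1.32 eRPKM in siCtrl OHT cells and at 1.32 and 0.942 eRPKM in siRAD21 cells. The siRAD21 OHT libraries, at 2.49 and 2.15 eRPKM, were again above all others of that time. These levels rest on few reads, 44 and 50 in the highest libraries and 10 in the lowest. With siRAD21 alone CXCL3 was not called, at a log2 fold change of 0.21 at 24 h (limma adjusted p = 0.467) and of 0.39 at 48 h (95% confidence interval 0.01 to 0.78, limma adjusted p = 0.0730), where the libraries overlapped. Without siCtrl replicate 3 of 48 h, the highest of its group, the latter was 0.59 (limma adjusted p = 0.00540), and without siRAD21 replicate 2 of 48 h, the lower of its group, it was 0.56 (limma adjusted p = 0.0493), each past both thresholds.

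With OHT in siRAD21 cells, CXCL3 rose at both times and was the one gene of the 4 called (25.0%). The shares of all genes tested were 11.9% at 24 h and 28.6% at 48 h, so that at 48 h the share of the 4 was not above it. CXCL3 had entered the test through its higher groups, the siRAD21 OHT groups among them. Its log2 fold change was 0.72 at 24 h (standard error 0.195, limma adjusted p = 0.0110) and 0.80 at 48 h (standard error 0.195, limma adjusted p = 0.00287, or 0.0159 with the siRAD21 OHT libraries averaged). The call at 24 h was lost without siRAD21 replicate 1 (0.73, limma adjusted p = 0.0504), without siRAD21 replicate 2 (0.71, limma adjusted p = 0.0589) or without siRAD21 OHT replicate 2 (0.66, limma adjusted p = 0.0727). In siCtrl cells limma called 0 of the 4 genes with OHT, against 8.78% of all genes at 24 h and 17.9% at 48 h. At 48 h each of the 4 had an adjusted p under 0.05 and libraries that did not overlap. A low p was common there, with 8748 of all 14993 genes at an unadjusted p under 0.05. The shares of all genes with an adjusted p under 0.05 or without overlap were not counted, so whether 4 of 4 was unusual was not tested. CXCL3 came closest to a call, with a log2 fold change of 0.37 at 24 h (limma adjusted p = 0.189) and of 0.50 at 48 h (standard error 0.159, limma adjusted p = 0.0168). The latter was just under the fold threshold before rounding. With voom, limma's method for reads, CXCL3 was called at 48 h (0.75, adjusted p = 0.0190), and 0 of the 4 genes at 24 h. The difference between the OHT effect in siRAD21 and in siCtrl cells, the siRNA by OHT interaction, was 0.35 for CXCL3 at 24 h (95% confidence interval -0.25 to 0.94) and 0.30 at 48 h (-0.24 to 0.84). These intervals include 0, and limma adjusted p was 0.930 and 0.447.

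CCL2 encodes a chemokine that draws monocytes through the receptor CCR2, and its gene lies at 32582293 to 32584227 on the plus strand of chromosome 17 (GRCh37). At 24 h its level was 18.2 and 15.7 eRPKM in siCtrl cells, 14.0 and 16.0 eRPKM in siCtrl OHT cells, 28.6 and 30.6 eRPKM in siRAD21 cells and 22.8 and 26.7 eRPKM in siRAD21 OHT cells. Each siRAD21 library was thus above each siCtrl library, with or without OHT. At 48 h the order was turned around. CCL2 was at 43.4, 45.3 and 37.7 eRPKM in siCtrl cells, at 36.2, 36.8 and 32.7 eRPKM in siCtrl OHT cells, at 27.2 and 27.9 eRPKM in siRAD21 cells and at 29.0 and 27.8 eRPKM in siRAD21 OHT cells. Each siRAD21 library at 48 h was below each siCtrl library, with or without OHT. In the order of group means, siCtrl at 48 h (42.2 ± 3.96 eRPKM, SD, n = 3) was above siCtrl OHT at 48 h (35.2 ± 2.19 eRPKM, SD, n = 3) with no overlap. The next 3 groups, siRAD21 at 24 h (29.6 eRPKM), siRAD21 OHT at 48 h (28.4 eRPKM) and siRAD21 at 48 h (27.6 eRPKM), overlapped with their neighbours. Below them stood siRAD21 OHT at 24 h (24.8 eRPKM) and, overlapping with each other, siCtrl (17.0 eRPKM) and siCtrl OHT at 24 h.

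Silencing of RAD21 raised CCL2 at 24 h and lowered it at 48 h. Against siCtrl cells its log2 fold change was 0.79 at 24 h (standard error 0.10, limma adjusted p = 5.82e-05) and -0.60 at 48 h (standard error 0.0913, limma adjusted p = 6.84e-05). At 24 h 2 of the 4 genes tested were called, CCL2 and TNFAIP3, against 8.43% of all genes, and at 48 h the same 2 genes, against 23.7%. The difference between the effects, 48 h minus 24 h, was -1.38 (standard error 0.135, limma adjusted p = 1.23e-05), and CCL2 was the one gene of the 4 called for it, against 10.7% of all genes. Its level in siCtrl cells was 2.44-fold higher on this scale at 48 h than at 24 h (log2 fold change 1.29, standard error 0.0913, limma adjusted p = 2.70e-07), and it was again the one gene of the 4 called, against 12.4% of all genes. In siRAD21 cells the means at 24 and 48 h were 29.6 ± 1.39 and 27.6 ± 0.504 eRPKM (SD, n = 2 each). Both siRAD21 effects are measured against the siCtrl cells of their own time, so the difference of -1.38 contains the rise in siCtrl cells. Time after transfection and any batch that went with it cannot be told apart.

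Under OHT the same comparison gave 0.70 for CCL2 at 24 h (standard error 0.10, limma adjusted p = 1.90e-04), where 2 of the 4 genes, CCL2 and TNFAIP3, were called, against 6.47% of all genes. At 48 h it gave -0.30 (standard error 0.0913, limma adjusted p = 0.0140, or 0.0677 with the siRAD21 OHT libraries averaged), under the fold threshold. There CXCL3, at 0.56 and not called at 24 h (limma adjusted p = 0.0588) except with voom (0.77, adjusted p = 0.0390), was the one gene of the 4 called (log2 fold change 0.69, standard error 0.178, limma adjusted p = 0.00565, or 0.0346 with the siRAD21 OHT libraries averaged), against 16.2% of all genes, and its call was lost without siRAD21 OHT replicate 1 (0.61, limma adjusted p = 0.0597). CXCL3 had entered the test through its higher groups, siRAD21 OHT at 48 h among them. OHT itself left CCL2 under the fold threshold in all 4 comparisons with ethanol. Its log2 fold changes were -0.17 and -0.25 in siCtrl cells and -0.25 and 0.04 in siRAD21 cells at 24 and 48 h. PCR duplicates were removed before counting. If read starts are compared, this limits a gene to 2 reads per exon base, 1 for each strand. CCL2 reached at most 22.7% of this limit. With the removal undone by calculation its effects were 0.86 at 24 h and -0.66 at 48 h, and the calls of the 4 genes were unchanged in all 12 comparisons.

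**Figure D2:**
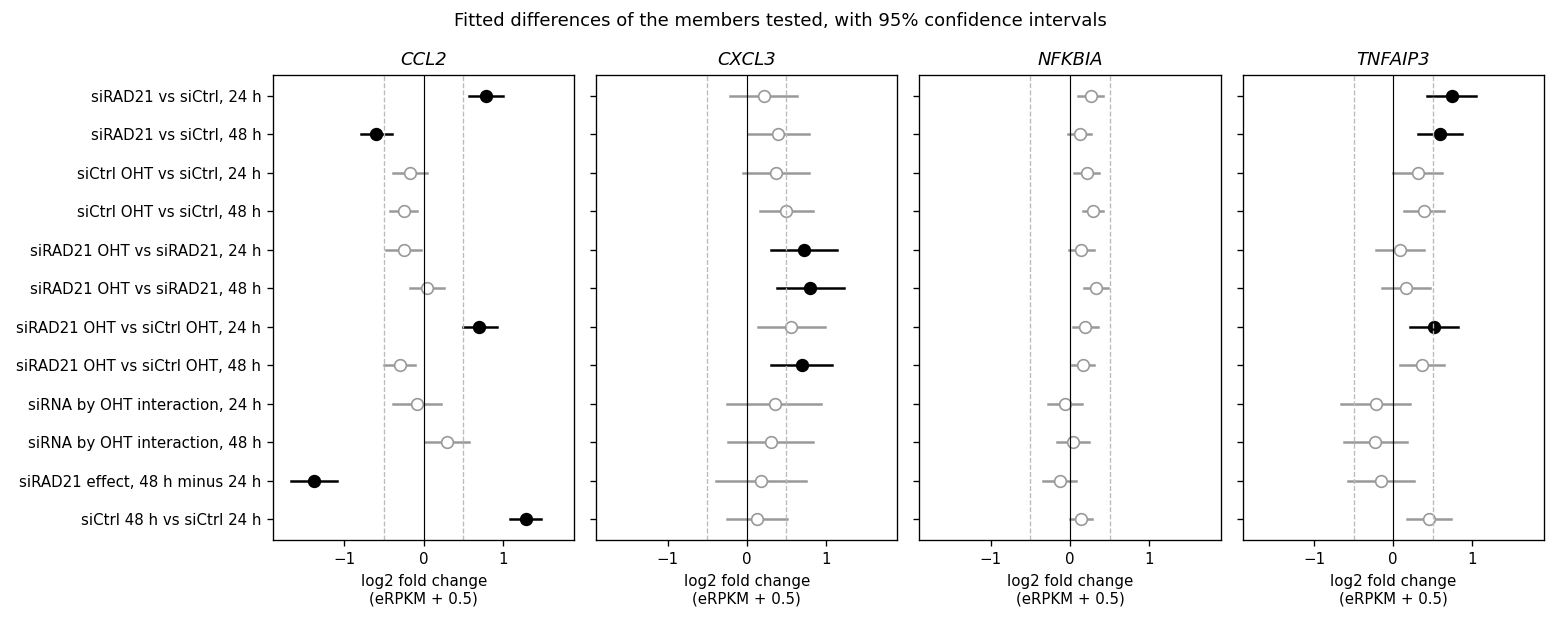
Fitted log2 fold changes on log2(eRPKM + 0.5) (horizontal axes) of the 4 genes tested in each of the 12 comparisons (vertical axis). Bars are 95% confidence intervals, filled black points are called changed, open grey points are not, and dashed lines mark the fold threshold of 0.5. CCL2 lies at 0.79 for siRAD21 at 24 h and at -0.60 at 48 h, and the points of NFKBIA all lie within the dashed lines.

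NFKBIA encodes IkB-alpha, the inhibitor that holds NF-kB in the cytoplasm and is itself an NF-kB target. The gene lies at 35870285 to 35873955 on the minus strand of chromosome 14 (GRCh37). At 24 h its level was 52.1 and 46.5 eRPKM in siCtrl cells, 56.5 and 57.4 eRPKM in siCtrl OHT cells, 60.4 and 57.6 eRPKM in siRAD21 cells and 62.2 and 68.2 eRPKM in siRAD21 OHT cells. The 4 groups did not overlap at 24 h and stood in this order. At 48 h it was 49.3, 57.1 and 56.4 eRPKM in siCtrl cells, 65.3, 67.9 and 65.6 eRPKM in siCtrl OHT cells, 57.1 and 61.0 eRPKM in siRAD21 cells and 74.0 and 74.4 eRPKM in siRAD21 OHT cells. All OHT libraries of 48 h were above all ethanol libraries of that time, whichever siRNA was used.

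NFKBIA was called in none of the 12 comparisons by limma, since each of its log2 fold changes was under the fold threshold, but 4 of them had an adjusted p under 0.05. With OHT its log2 fold change at 48 h was 0.29 in siCtrl cells (standard error 0.0582, limma adjusted p = 8.12e-04) and 0.33 in siRAD21 cells (standard error 0.0713, limma adjusted p = 0.00123). At 24 h these values were 0.21 (limma adjusted p = 0.0452) and 0.14 (limma adjusted p = 0.140). The siRNA by OHT interaction was -0.07 at 24 h (95% confidence interval -0.28 to 0.15) and 0.04 at 48 h (-0.16 to 0.24). Silencing of RAD21 gave 0.26 at 24 h (limma adjusted p = 0.0158) and 0.12 at 48 h (limma adjusted p = 0.119). As the most abundant of the 10 genes it was also the nearest to the limit set by the removal of duplicates, at 37.7% of it at most, and its highest level with the removal undone was 92.6 in place of 74.4 eRPKM.

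TNFAIP3 encodes A20, a ubiquitin-editing enzyme that shuts down the signal upstream of the IkB kinase. Its gene lies at 138188351 to 138204451 on the plus strand of chromosome 6 (GRCh37), and 95 of its annotated exon bases are also exon bases of WAKMAR2 on the other strand. The library kit does not mark the strand, so reads on these bases cannot be assigned to either gene. At 24 h TNFAIP3 was at 3.89 and 5.21 eRPKM in siCtrl cells, at 6.14 and 5.27 eRPKM in siCtrl OHT cells, at 7.23 and 8.53 eRPKM in siRAD21 cells and at 8.41 and 8.27 eRPKM in siRAD21 OHT cells. All siRAD21 libraries were above all siCtrl libraries at that time. At 48 h it was at 6.15, 7.23 and 5.69 eRPKM in siCtrl cells, at 9.37, 8.89 and 7.28 eRPKM in siCtrl OHT cells, at 9.56 and 9.97 eRPKM in siRAD21 cells and at 10.7 and 11.4 eRPKM in siRAD21 OHT cells. The 4 groups did not overlap at 48 h and stood in this order.

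Silencing of RAD21 raised TNFAIP3 at both times, by a log2 fold change of 0.74 at 24 h (standard error 0.143, limma adjusted p = 0.00163) and of 0.59 at 48 h (standard error 0.130, limma adjusted p = 0.00149). The difference between these effects, 48 h minus 24 h, was -0.15 (95% confidence interval -0.57 to 0.26). Under OHT the effect was 0.51 at 24 h (standard error 0.143, limma adjusted p = 0.0201) and 0.36 at 48 h (limma adjusted p = 0.0363, or 0.127 with the siRAD21 OHT libraries averaged), the latter under the fold threshold. The call at 24 h under OHT was lost without siCtrl OHT replicate 2 (0.41, limma adjusted p = 0.154), siRAD21 OHT replicate 1 (0.50, limma adjusted p = 0.0901) or siRAD21 OHT replicate 2 (0.53, limma adjusted p = 0.0812). OHT in siCtrl cells gave 0.31 at 24 h (limma adjusted p = 0.135) and 0.39 at 48 h (limma adjusted p = 0.0111), and in siRAD21 cells 0.08 and 0.16. In siCtrl cells TNFAIP3 was 0.45 higher at 48 h than at 24 h on the log2 scale (limma adjusted p = 0.0123), under the fold threshold.

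None of the 4 genes was called for the siRNA by OHT interaction. At 24 h limma called 0 genes of 14993 (0%), with 906 at an unadjusted p under 0.05, and voom called 19 with 1021. At 48 h 7.30% of all genes were called. The interaction for CCL2 at 48 h was 0.29 (95% confidence interval 0.02 to 0.57, limma adjusted p = 0.135) and for TNFAIP3 -0.23 (-0.62 to 0.17).

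IL6, IL1A and IL1B encode secreted cytokines of the acute inflammatory response, and ICAM1 the adhesion molecule that leukocyte integrins bind. Their means over the 18 libraries were 0.383, 0.882, 0.461 and 0.707 eRPKM. IL6 had 4 to 16 reads in a library and group means from 0.315 eRPKM (siRAD21 OHT at 24 h) to 0.556 ± 0.0866 eRPKM (SD, n = 2, siRAD21 at 48 h). The IL6 gene (chromosome 7, 22765503 to 22771621, plus strand, GRCh37) shares 474 annotated exon bases with IL6-AS1 and STEAP1B on the other strand, so reads on these bases cannot be assigned to IL6. ICAM1 had 14 to 50 reads in a library, and its highest group was siRAD21 at 24 h (1.07 ± 0.209 eRPKM, SD, n = 2). It also shares exon bases, 876 in all, with ICAM4-AS1 and LIMASI on the other strand of chromosome 19 (10381769 to 10397291, GRCh37).

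IL1A had 14 and 15 reads in the siCtrl libraries at 24 h (0.437 and 0.404 eRPKM) and 14 in each siCtrl OHT library (0.389 and 0.417 eRPKM). In the siRAD21 libraries at 24 h it had 34 and 26 reads (0.943 and 0.704 eRPKM), and in the siRAD21 OHT libraries 28 and 24 (0.822 and 0.741 eRPKM). Each siRAD21 library at 24 h was above each siCtrl library. At 48 h IL1A was at 0.666, 0.921 and 0.982 eRPKM in siCtrl cells, at 1.23, 0.920 and 0.935 eRPKM in siCtrl OHT cells, at 1.44 and 1.07 eRPKM in siRAD21 cells and at 1.52 and 1.32 eRPKM in siRAD21 OHT cells. Each siRAD21 library was again above each siCtrl library given the same agent.

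When the filter on low values was left out and all 22040 genes with a read were tested, 2 of the 6 low genes were called. IL1A was called with siRAD21 at 24 h (log2 fold change 0.52, standard error 0.154, limma adjusted p = 0.0340), where 3 of the 10 genes were called against 6.43% of all. It was called with siRAD21 under OHT at 24 h (0.51, limma adjusted p = 0.0475), with 3 of 10 against 4.65%, and in siCtrl cells at 48 h compared with 24 h (0.55, limma adjusted p = 0.00889), with 2 of 10 against 9.80%. With voom on the reads these 3 values were larger, at 0.93, 0.94 and 1.00, and called as well. When 1 library at a time was left out, IL1A kept these calls in 15, 7 and 16 of 18 fits. At 24 h the first was lost without siCtrl replicate 1 (log2 fold change 0.54, limma adjusted p = 0.102), siCtrl replicate 2 (0.49, limma adjusted p = 0.119) or siRAD21 replicate 1 (log2 fold change 0.39, limma adjusted p = 0.236).

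IL1B was at 0.409, 0.331 and 0.0615 eRPKM in siCtrl cells at 48 h (6, 5 and 1 reads) and at 2.01 and 0.650 eRPKM in siRAD21 cells (33 and 10 reads). The libraries did not overlap, but most reads of the siRAD21 group came from 1 of its libraries. In the test without the filter IL1B was called with siRAD21 at 48 h (log2 fold change 1.18, standard error 0.356, limma adjusted p = 0.0166), with 3 of 10 genes called against 19.2% of all. On the reads, where no pseudocount of 0.5 eRPKM dampens the change of a low gene, voom gave 2.31 (standard error 0.659, adjusted p = 0.00745). The call in the test on eRPKM was lost without siRAD21 replicate 1 (0.61, limma adjusted p = 0.270) or without siCtrl replicate 3 (0.97, limma adjusted p = 0.0644). In the groups other than siRAD21 at 48 h IL1B had 1 to 13 reads in a library. Neither IL6 nor ICAM1 was called in any of the 12 comparisons of this test. For siRAD21 against siCtrl at 24 h the interval of ICAM1 was -0.09 to 0.66 around 0.28 and that of IL6 -0.37 to 0.62 around 0.12, on the log2 scale.

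**Figure D3:**
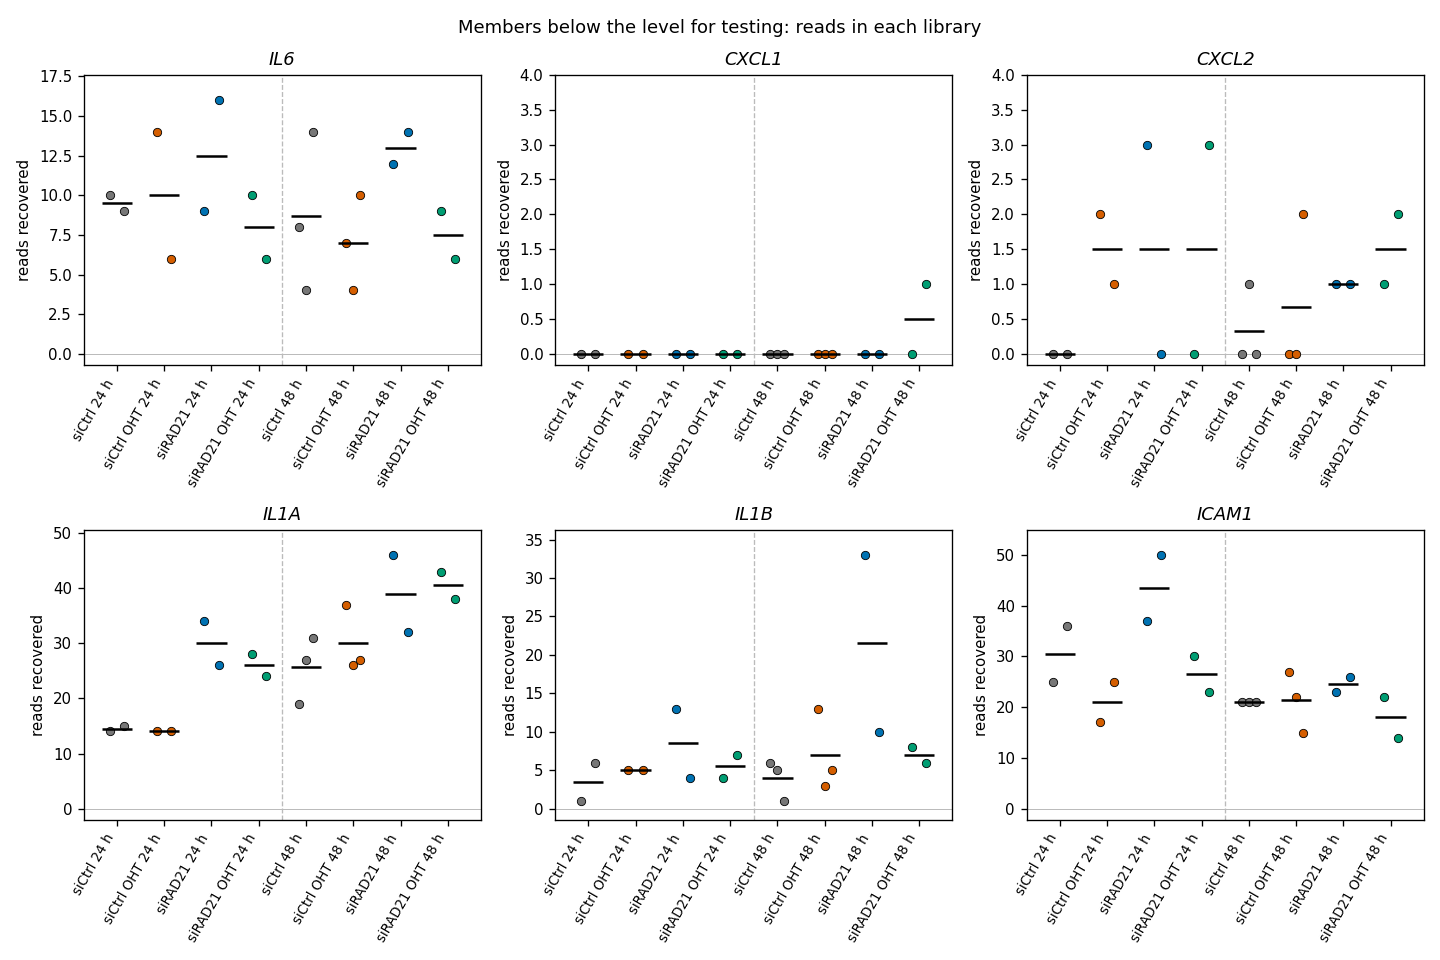
Reads recovered (vertical axes, each including 0) in each of the 18 libraries for the 6 genes below the level for testing, by group. Points are libraries and bars are means of the reads, not scaled for depth; the dashed line separates 24 h from 48 h. IL1B stands at 33 reads in 1 siRAD21 library at 48 h and at 10 in the other, and CXCL1 has 1 read in 1 library.

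The patterns of the 4 genes tested were each compared with those of all other genes over the 8 group means of log2(eRPKM + 0.5). The most alike gene was ADCK4 for CCL2 (Pearson r = 0.939), FAHD2B for CXCL3 (0.992), BMP2 for NFKBIA (0.984) and LUZP6 for TNFAIP3 (0.982). These are descriptions over 8 means that share libraries. FAHD2B has a near-identical paralog, FAHD2A, and LUZP6 overlaps MTPN, so their reads are uncertain. No gene reached r = 0.95 with CCL2, whereas 38, 15 and 17 genes passed it for CXCL3, NFKBIA and TNFAIP3.

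Other genes of the pathway were taken from lists written by hand. Of 5 NF-kB subunits, NFKB2 and RELB, the subunits of the non-canonical branch, rose with siRAD21 at 48 h (log2 fold changes 0.71 and 0.53, 2 of 5 against 23.7% of all genes) and with OHT in siCtrl cells at 48 h (0.75 and 0.68, 2 of 5 against 17.9%), and no subunit was called in the other 6 comparisons of 1 time. Of 14 other feedback genes, 4 rose and 1 fell with siRAD21 at 24 h (35.7% called against 8.43% of all genes), and 4 rose at 48 h (28.6% against 23.7%, near the share of all genes). TRAF1, an adaptor of tumour necrosis factor receptors, rose by 1.18 at 24 h and 1.60 at 48 h (from 2.96 to 9.94 eRPKM), and BIRC3, a ubiquitin ligase of the same receptors, by 0.94 and 1.12. With OHT, TRAF1 rose by 1.78 in siCtrl cells at 48 h and by 0.98 in siRAD21 cells at 48 h. In siCtrl cells at 48 h it was the one gene of the 14 called, 7.14% against 17.9% of all genes. OHT otherwise called 1 of the 14 (lower) in siCtrl cells at 24 h, 1 (lower) in siRAD21 cells at 24 h, and 1 more higher and 1 lower in siRAD21 cells at 48 h, at or below the shares of all genes (8.78%, 11.9% and 28.6%). Under OHT, siRAD21 raised 2 and lowered 1 of the 14 at each time (21.4% against 6.47% and 16.2% of all genes).

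Of 18 other NF-kB targets tested, 7 rose and 0 fell with siRAD21 at 24 h (38.9% called against 8.43% of all genes), with a median log2 fold change of 0.350 against 0.002 for all genes. At 48 h 7 rose and 1 fell (44.4% called against 23.7%), with a median of 0.412 against -0.014. The 10 genes' own medians, over the 4 tested, were 0.498 and 0.258. CXCL8, the interleukin-8 gene of the same cluster as CXCL1 to CXCL3, had group means from 3.90 to 35.9 eRPKM, far above those of its 3 neighbours. It rose with siRAD21 at 24 h (1.05, limma adjusted p = 0.00517), with OHT in siCtrl cells (1.39 at 24 h and 0.86 at 48 h) and with OHT in siRAD21 cells (0.92 and 1.23). With siRAD21 at 48 h CXCL8 was not called (0.53, limma adjusted p = 0.0507). Under OHT the siRAD21 effect was 0.58 at 24 h (limma adjusted p = 0.110, not called) and 0.90 at 48 h (called). In siCtrl cells CXCL8 was also higher at 48 h than at 24 h, by 1.29. SAA1, an acute phase gene with the close paralog SAA2, went from 0.667 to 6.36 eRPKM with siRAD21 at 48 h, CSF1 from 4.75 to 12.3 eRPKM and CCL20 from 4.85 to 11.5 eRPKM. With OHT the targets moved both ways: 2 rose and 5 fell in siCtrl cells at 24 h (38.9% called against 8.78%), and 4 rose and 1 fell at 48 h (27.8% against 17.9%). In siRAD21 cells 1 rose and 6 fell at 24 h (38.9% against 11.9%), and 3 rose and 6 fell at 48 h (9 of 18 against 28.6%). MMP9, a matrix protease, fell from 23.4 to 8.51 eRPKM in siRAD21 cells at 48 h. Under OHT, siRAD21 raised 3 and lowered 0 of the 18 at 24 h (16.7% against 6.47%), and raised 4 and lowered 2 at 48 h (33.3% against 16.2%).

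**Figure D4:**
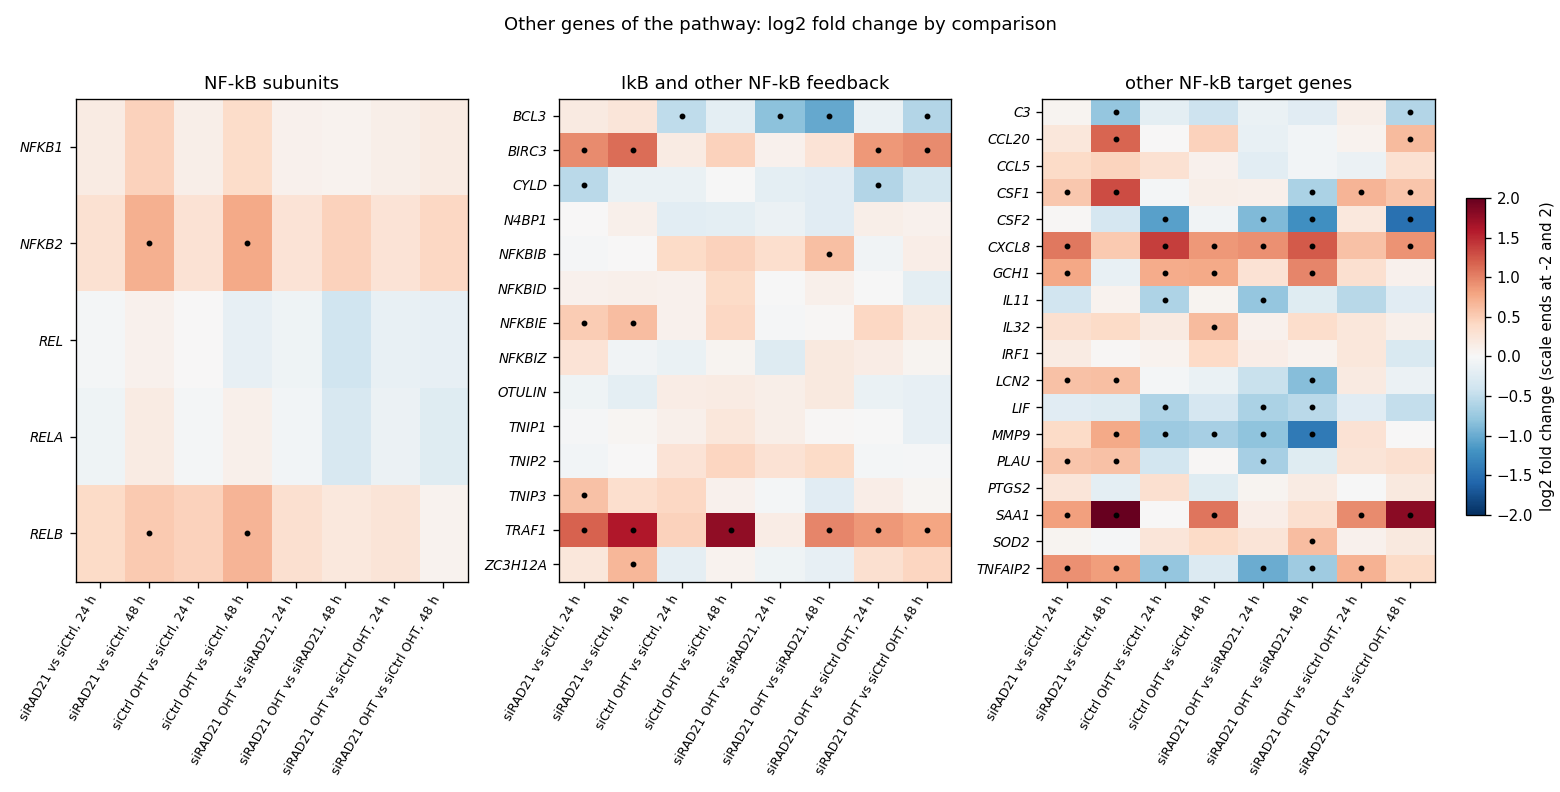
Fitted log2 fold changes (colour, red higher and blue lower, scale from -2 to 2) of the other NF-kB pathway genes tested, by comparison (columns), in 3 lists: 5 NF-kB subunits, 14 feedback genes and 18 other targets. Dots mark genes called changed. SAA1, TRAF1, CXCL8 and BIRC3 are red wherever they carry a dot, whereas the dots of MMP9 and TNFAIP2 are red for siRAD21 and blue for OHT (MMP9 0.75 and -1.41 at 48 h).

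Of 20 kinases and adaptors, 0 were called by limma with siRAD21 at 24 h, against 8.43% of all genes. At 48 h 4 rose and 1 fell (25.0% against 23.7% of all genes, near that share). MYD88, the adaptor of interleukin-1 and Toll-like receptors, was among those that rose (0.86). With OHT 0 were called in siCtrl cells at 24 h (against 8.78%), and 1 rose and 2 fell at 48 h (3 of 20 against 17.9%). In siRAD21 cells OHT lowered 2 at 24 h (10.0% against 11.9%) and raised 2 and lowered 4 at 48 h (6 of 20 against 28.6%). In siRAD21 cells these shares were near those of all genes. Under OHT siRAD21 lowered 1 at 48 h (5.00% against 16.2%) and changed 0 at 24 h (against 6.47%). Of 13 cytokine and Toll-like receptors, 2 rose and 1 fell with siRAD21 at 24 h (23.1% against 8.43%) and 1 rose at 48 h (7.69% against 23.7%), TLR3 being higher at both times (0.77 and 1.21). OHT raised 1 and lowered 1 in siCtrl cells at 24 h (15.4% against 8.78%) and raised 3 and lowered 1 at 48 h (30.8% against 17.9%). In siRAD21 cells it raised 1 and lowered 2 at 24 h (23.1% against 11.9%), and raised 2 and lowered 2 at 48 h (30.8% against 28.6%). Under OHT siRAD21 raised 1 and lowered 2 at 24 h (23.1% against 6.47%), and raised 1 and lowered 1 at 48 h (15.4% against 16.2%).

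Of 12 AP-1 and C/EBP factors, siRAD21 lowered 1 at 24 h (8.33% against 8.43%) and 2 at 48 h (16.7% against 23.7%), with FOSL2 lower at both times (-0.57 and -0.60) and CEBPB at 48 h (-0.87). OHT raised ATF3 and CEBPD, 2 of the 12, in siCtrl cells at both times and in siRAD21 cells at 24 h (16.7% against 8.78%, 17.9% and 11.9%), and raised 5 and lowered 1 in siRAD21 cells at 48 h (6 of 12 against 28.6%). Under OHT siRAD21 lowered FOSL2 at both times (-0.73 and -1.14) and raised 1 factor at 48 h. The shares called were 8.33% against 6.47% of all genes at 24 h and 16.7% against 16.2% at 48 h. Of 10 regulators of cytokine mRNA decay, limma called 0 with siRAD21 at either time, against 8.43% and 23.7% of all genes. It also called 0 with siRAD21 under OHT, against 6.47% and 16.2%. ZC3H12C rose with OHT in siCtrl cells at both times (0.67 and 0.84), 1 of 10 against 8.78% and 17.9%. ZC3H12C also rose with OHT in siRAD21 cells at 48 h (0.77), where 1 regulator fell (2 of 10 against 28.6%). At 24 h OHT changed 0 in siRAD21 cells, against 11.9%. These shares with OHT were near or below those of all genes. Of the 5 osteoblast genes tested, 3 fell with OHT at 48 h in both kinds of cells, RUNX2, SPP1 and COL1A1. These 3 of 5 stood against 17.9% of all genes in siCtrl cells and 28.6% in siRAD21 cells. RUNX2 fell by 0.66 in siCtrl cells at 24 h, where it was the one called (1 of 5 against 8.78%). In siRAD21 cells 1 fell with OHT at 24 h, again RUNX2 (1 of 5 against 11.9%). With siRAD21 0 were called at either time, against 8.43% and 23.7%. Under OHT siRAD21 changed 0 at 24 h (against 6.47%), and at 48 h 1 rose and 2 fell (3 of 5 against 16.2%). Of the 4 immune genes tested, ITGAM, a leukocyte integrin with group means of 0.592 to 2.54 eRPKM, is named here after its values were seen. It rose with siRAD21 at each time, with and without OHT, and with OHT in siCtrl cells at 48 h. CD68 fell by 0.66 with OHT in siRAD21 cells at 24 h. Each was the one gene called in its comparisons, 25.0% of the 4. The shares of all genes were 8.43% and 23.7% for siRAD21, and 6.47% and 16.2% for siRAD21 under OHT. They were 17.9% for OHT in siCtrl cells at 48 h and 11.9% in siRAD21 cells at 24 h. The part of these markers in the results of the 10 genes was not tested.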

How the data were processed

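Libraries were made from total RNA depleted of ribosomal RNA, without strand marking. The authors masked or trimmed bases of low quality, aligned 50-base reads to hg19 with TopHat2 (2.0.8 in the submitters' notes, which also name featureCounts 1.4.5), removed PCR duplicates and deposited eRPKM (RPKM over exons), the values used here. Their gene annotation is not given in the sources used here. Whole reads were recovered for 22030 of the 22040 genes above 0, within 0.02 of a whole number.

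The 10 genes and the 10 other gene lists were chosen with earlier results of these data known. Tests used limma 3.58.1 (R 4.3.3, lmFit and eBayes with trend) on log2(eRPKM + 0.5), 1 mean for each of 8 groups, and the Benjamini-Hochberg procedure in each of 12 comparisons. Of the other lists, up to 4 genes per comparison qualified for naming: those called with the largest change and at least 5 eRPKM in a group, and a selection of these is given. The fit was tested on simulated data with known changes. Tables and figures used Python 3.11.15, pandas 2.3.3, numpy 2.4.6, scipy 1.17.1 and matplotlib 3.10.9. The alternatives tried were pseudocounts of 1 and 0.1, no filter, median centring, quantile normalization, the compared groups alone, a replicate block, voom, averaging the siRAD21 OHT libraries of 48 h and leaving out each library. Those added after seeing the data were voom without the filter, undoing the removal of duplicates, a block with crossed numbers and IL1A and IL1B without each library. The labels do not say whether replicates were separate cultures, although the study's methods call them biological replicates, so p-values measure the spread between these libraries. Same-numbered siCtrl and siCtrl OHT libraries at 48 h tended to depart together from their groups (r = 0.258, 0.13 and 0.157). Differently numbered libraries were not compared in this way, so a pairing by number was not established.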

Additional observations from a re-analysis of the deposited data

Results flagged for a closer look

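The effect of RAD21 silencing on CCL2 differed between the times by a test of the difference itself: 48 h minus 24 h was -1.38 on the log2 scale (limma adjusted p = 1.23e-05), higher in 2 of 2 siRAD21 libraries than in every siCtrl library at 24 h and lower in 2 of 2 at 48 h. Leaving out any 1 library gave -1.49 to -1.28.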

How the results depend on the processing

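The number of the 10 genes expressed in at least 1 group was 7, and 4 at a minimum mean of 2 eRPKM. Without 1 library it was 6 to 7. Of the comparisons in which the number of members called moved, that of OHT in siCtrl cells went from 0 to 1 at 24 h with quantile normalization, and at 48 h with a pseudocount of 0.1, median centring, quantile normalization and both voom fits, each time with CXCL3. For siRAD21 under OHT at 24 h it went from 2 to 1 with a pseudocount of 1 and with quantile normalization, and to 3 with voom, by CXCL3, and with no filter, with or without voom, by IL1A. For siCtrl cells at 48 h against 24 h it went from 1 to 2 with median centring, with no filter and with voom without the filter. Without 1 library the number was 1 to 2 for siCtrl cells at 48 h against 24 h, 0 to 1 for OHT in siCtrl cells at 48 h, 0 to 1 for OHT in siRAD21 cells at 24 h, 1 to 3 for siRAD21 under OHT at 24 h and 0 to 1 at 48 h, and 2 to 3 for siRAD21 at 48 h. The libraries behind these ranges are named in the report for calls that were lost. CXCL3 was called with OHT in siCtrl cells at 48 h without siCtrl replicate 3 (0.69), siCtrl OHT replicate 1 (0.51) or siCtrl OHT replicate 2 (0.52). TNFAIP3 was called between the times without siCtrl replicate 2 of 24 h (0.64) or siCtrl replicate 3 of 48 h (0.52). The cause of these changes was not tested.

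Among log2 fold changes of single genes, those that changed sign were all small and not called. With quantile normalization CCL2 with OHT in siRAD21 cells at 48 h came to -0.08 and the interaction of NFKBIA at 48 h to -0.07. Without 1 library, TNFAIP3 with OHT in siRAD21 cells at 24 h ranged from -0.03 to 0.19, and its effect of siRAD21 at 48 h minus 24 h from -0.34 to 0.04. CCL2's interaction at 24 h ranged from -0.20 to 0.03, NFKBIA's from -0.15 to 0.02 at 24 h and from -0.01 to 0.11 at 48 h, and CXCL3 in siCtrl cells at 48 h against 24 h from -0.07 to 0.28. The calls of CCL2 held in every setting run.

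With the replicate block, the number called for siCtrl cells at 48 h against 24 h was 2 (TNFAIP3, 0.53, limma adjusted p = 0.00210), and it was 2 with the numbers of siCtrl at 24 h crossed. CXCL3 was called under the block with siRAD21 at 48 h (0.50, limma adjusted p = 0.0210) and with siRAD21 under OHT at 24 h (0.56, limma adjusted p = 0.0378). Of the groups that share 3 numbers, siCtrl and siCtrl OHT at 48 h, every same-numbered pair correlated above 0.1, and there the block changed no call. The other groups share 2 numbers, too few for this rule. Among them siRAD21 at 48 h came nearest, at 0.168 and 0.111 with siCtrl OHT and 0.099 and 0.146 with siCtrl, so a pairing of these was not excluded. Depth limits the 6 low genes, which had at most 50 reads in a library.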
